A study of Mus musculus with 4 samples.

Results

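Cytosolic ribosomal protein genes encode the protein parts of the ribosome, the particle that makes every cell's proteins. In area CA1 of the hippocampus, a field of pyramidal neurons needed for contextual memory, they were measured on 4 arrays of control samples. The genes were chosen by name: their symbol starts with Rpl or Rps and a digit, or is Rplp0, Rplp1, Rplp2 or Rpsa, with the Rps6ka and Rps6kb kinase genes left out. Only probe sets assigned to a single gene symbol were used, and each gene was represented by its brightest one. This gave 36 genes with 50 probe sets, out of 8251 genes with a single symbol and 12422 non-control probe sets on the array. Rplp1, Rplp2 and Rps6 had no probe set of that kind and are not analysed here.

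All 4 samples were total RNA of CA1 from young male C57BL/6J mice, an inbred strain. The animals were controls, handled by the experimenter with no other treatment. They differ in the hour at which RNA was taken, 1, 2, 4 or 6 h after shock-treated mice, not analysed here, had their last shock. Each hour has 1 sample on 1 array, so a difference between hours has no replicate check, and the number of mice behind each sample is not given in the labels. In bulk RNA such as this, fewer cells of a type and less RNA per cell cannot be told apart.

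A ribosome is built from a large subunit, which joins amino acids, and a small subunit, which reads the messenger RNA. Each ribosomal protein is present in a single copy per ribosome, apart from the P proteins of the stalk, so cells keep the output of these genes in balance. In vertebrates their messenger RNAs start with a run of pyrimidines, the 5' terminal oligopyrimidine (TOP) tract, through which the kinase mTOR controls their translation. Neurons also carry ribosomes into dendrites, where local protein synthesis takes part in lasting synaptic change.

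The start regions show what many of these genes share in sequence, which the choice by name did not use. RefSeq windows (GRCm38.p6) of 250 bases before to 50 bases after an annotated start were matched by gene identifier for 29 of the 36 genes, giving 38 windows, since some genes have several starts. The sequences below run 5' to 3' on the gene's strand, from 30 bases before the start to 20 bases after it. Capitals mark pyrimidine tracts of 8 or more letters that begin with C, and the letters CCGGAAG, the core recognised by ETS-family factors, or their reverse complement.
Rps18: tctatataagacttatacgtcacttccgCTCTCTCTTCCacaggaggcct
Rps10: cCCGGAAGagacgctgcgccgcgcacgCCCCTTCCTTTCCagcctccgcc
Rpl13a: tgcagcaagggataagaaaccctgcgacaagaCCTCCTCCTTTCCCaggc
Rpl7a: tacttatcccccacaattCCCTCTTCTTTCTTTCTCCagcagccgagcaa
Rps7: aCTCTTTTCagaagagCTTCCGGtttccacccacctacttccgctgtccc
Rps3a1: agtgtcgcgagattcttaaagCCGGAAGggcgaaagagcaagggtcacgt
Rplp0: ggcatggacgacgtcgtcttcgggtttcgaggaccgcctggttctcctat
The first 4 are shown because a tract lies at or just after their start, Rps7 and Rps3a1 for the ETS core near it, and Rplp0 as a window of the same length with neither. They lie at chr17:33955646-33955695 (Rps18), chr17:27635225-27635274 (Rps10), chr7:45128726-45128775 (Rpl13a), chr12:28635934-28635983 (Rps7) and chr3:86142649-86142698 (Rps3a1) on the minus strand. Those of Rpl7a and Rplp0 lie at chr2:26910777-26910826 and chr5:115559437-115559486 on the plus strand.

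A pyrimidine tract of this kind, sought on the gene's strand from 10 bases before to 30 bases after the start, was in 34.2% of the 38 windows of ribosomal protein genes and in 11.2% of all 32851 RefSeq windows. CCGGAAG was found on either strand of the 300 bases in 34.2% against 8.86%, and AAGATGGC, the core of the factor YY1, in 18.4% against 2.75%. The letters TATAAA, sought in the 300 bases on the gene's strand only, were in 7.89% against 8.32%. Counted by gene, the tract was in 13 of 29 ribosomal protein genes, against 12.9% of all 27025 genes. CCGGAAG was in 13, against 9.93%, AAGATGGC in 5, against 3.19%, and TATAAA in 3, against 9.77%. The 38 windows and 29 genes include Rps6kc1 and Rpl7l1, which match the naming rule but encode no structural ribosomal proteins. The window of Rps6kc1 holds both a tract and CCGGAAG, so this gene is part of both counts of 13. A tract can overlap the reverse complement of CCGGAAG. The motifs were chosen after the windows had been read, windows of 1 gene overlap in part, and a match is a description of these letters, not a binding site. The annotated start can also lie some bases from the true one: the window of Rplp0 holds no tract within reach, which says nothing about its transcript.

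The signals are scaled intensities. Probes bind with unequal strength, so a signal can be set against that of another array but not against that of another gene. Mean signals of the 36 genes ran from 40.1 to 58504. They were at least 1000 for 20 genes, at least 5000 for 15 and at least 10000 for 7. The other end held 9 genes whose mean log2 signal did not reach the filter, a signal of 116.4 (the 40th percentile of all values), and these were not tested. The 27 genes that passed are called the tested genes, and 1 of them, Rpl7l1, had an array under that signal.

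The 9 untested genes code for core ribosomal proteins in 7 cases and for paralogues in the other 2. Rpl38, a large-subunit protein, had 79.7, 142, 105 and 120.4 at 1, 2, 4 and 6 h, and Rpl32, also of the large subunit, had 86.1, 80.4, 67.8 and 37.2. Rps15, a small-subunit protein near the decoding site, had 62.6, 55.1, 54.1 and 91.6. The remaining 6 had at least 1 array under the floor of 36.8 (the 20th percentile of all values), to which lower values were raised. They were Rpl35a, with signals of 26.3 to 54.2, Rpl39, with 19.1 to 90.7, Rps14, with 25.6 to 92.2, Rps20, with 30.4 to 67.9, and the paralogues Rpl39l, with 14.9 to 93.7, and Rps27l, with 18.2 to 75.8. The proteins of Rpl32, Rpl35a, Rpl38, Rpl39, Rps14, Rps15 and Rps20 are standard parts of the ribosome, and these dim signals are given as those of the probe sets, not as transcript levels.

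**Figure D1:**
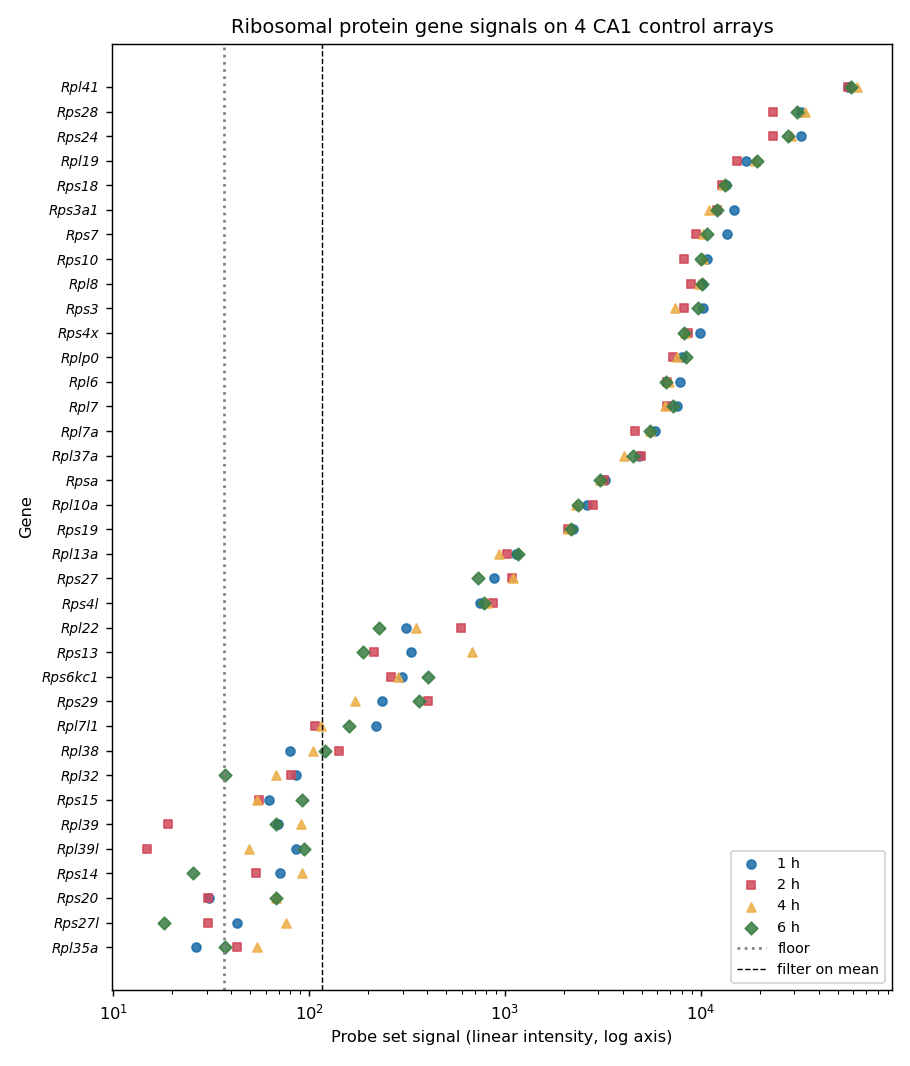
Signals of the 36 ribosomal protein genes (rows) on the 1, 2, 4 and 6 h arrays (points) on a log axis, with the floor of 36.8 and the filter of 116.4 as lines; signals are not comparable between genes. The 20 genes with a mean of at least 1000 keep their 4 points close together, and the points spread apart among the dim genes.

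The label holds for 34 of the 36 genes. Rps6kc1 matches the naming rule but encodes a kinase-like protein that binds membrane lipids, and Rpl7l1 encodes a relative of Rpl7 that takes part in ribosome assembly. Rps6kc1 had signals of 297, 263, 285 and 407 at 1, 2, 4 and 6 h, highest at 6 h. Rpl7l1 had 218, 107, 115.5 and 159.9, highest at 1 h.

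Several bright ribosomal protein genes were among the steadier signals of these arrays. Rps18, a protein of the small subunit's head, had 13389.7, 12824, 13006 and 13333 at 1, 2, 4 and 6 h, a mean of 13138 ± 269 (SD, n = 4) and a 1.04-fold range. Rpsa, a small-subunit protein also known as the laminin receptor, had 3223, 3217, 3073 and 3046, a mean of 3139.85 ± 93.2 (SD, n = 4). Rps19, the small-subunit protein whose loss causes Diamond-Blackfan anaemia, had 2231.5, 2107, 2089 and 2181. Each of these 3 stayed within 1.07-fold over all 4 arrays.

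Rpl41, which encodes a very short peptide of the large subunit, had 56519, 56335, 62726 and 58437, a mean of 58504 ± 2971 (SD, n = 4). Its 1 and 2 h arrays nearly coincide and the 4 h array is the highest. Rpl8, a protein near the catalytic centre of the large subunit, had 10084, 8869, 9838 and 10170.1, with the 2 h array below the other 3. Rplp0, the base of the stalk that calls in elongation factors, had 7972, 7168, 7526 and 8443, also lowest at 2 h.

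Over the 27 tested genes the highest array exceeded the lowest by less than 1.2-fold in 9, against 9.51% of all 7237 tested probe sets, and by less than 1.5-fold in 21, against 46.4%. The background depends on brightness: with a mean signal of at least 1000, the range was under 1.5-fold for 20 of 20 genes and for 70.1% of 1852 probe sets. The median range was 1.26-fold in the tested genes and 1.54-fold in all tested probe sets. For means of at least 1000 it was 1.23-fold against 1.36-fold. Between 5000 and 10000 it was 1.19-fold over 8 genes, against 1.34-fold over 181 probe sets. From 10000 upward the 7 genes were no steadier than the 128 probe sets, with 1.34-fold against 1.31-fold. Relative to the mean, the SD over the 4 arrays was 2.05% to 16.6% in the 20 bright genes, with a median of 9.19%, and 6.63% to 63.9% in the 16 dimmer ones, with a median of 35.4%.

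**Figure D2:**
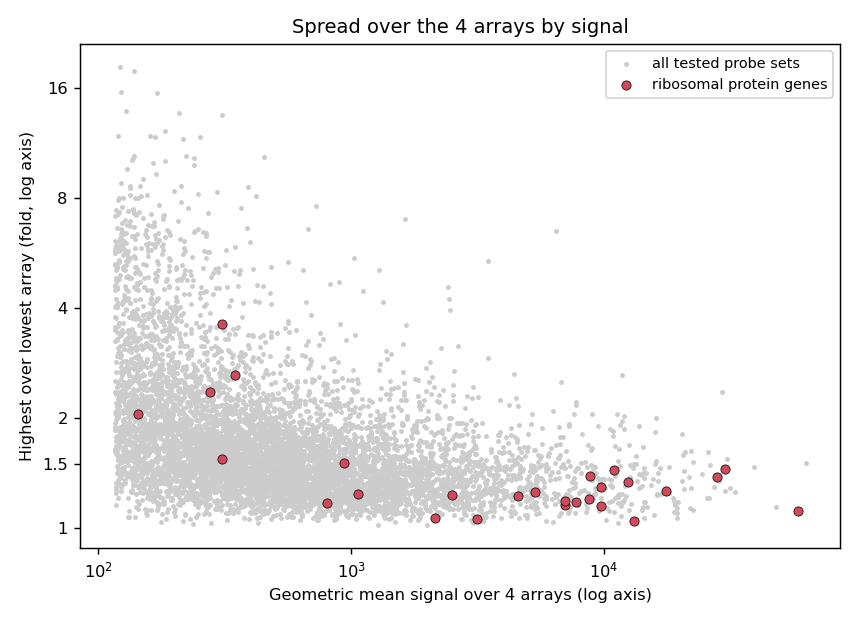
Highest over lowest array (fold, log axis) against the geometric mean signal over the 4 arrays (log axis), for all 7237 tested probe sets (grey) and the 27 tested ribosomal protein genes (red). The fold range narrows with signal over all tested probe sets, and the 20 genes with a mean of at least 1000 all lie under 1.5-fold. Among these genes it does not narrow further, with a median of 1.34-fold from 10000 upward, against 1.31-fold for all.

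On the 1 h array 20 of the 27 tested genes lay above their own mean over the arrays, and on the 2 h array 20 lay below it. At 4 h 11 were above and 16 below, and at 6 h 14 and 13. These counts were not made over all tested probe sets, so they have no background share. Set against the mean of the other 3 arrays, the median log2 deviation of the 27 tested genes was 0.11 at 1 h, -0.079 at 2 h, -0.041 at 4 h and 0.027 at 6 h. Over all tested probe sets it was -0.00080, -0.011, 0.020 and 0.032. The 1 h array was the highest of the 4 for 13 of the 27 genes, against 23.1% of all tested probe sets, and the lowest for 1, against 25.1%. The 2 h array was the lowest for 12, against 32.0%, the 4 h array for 8, against 22.0%, and the 6 h array for 6, against 20.9%. The 2 h array was the highest for 5, against 29.1%, the 4 h array for 4, against 23.2%, and the 6 h array for 5, against 24.5%. Over all tested probe sets the 2 h array was thus the most frequent at either extreme. Brightness alters the 2 h comparison: with a mean signal of at least 1000, the 2 h array was the lowest for 10 of 20 genes, against 43.7% of 1852 probe sets, and the median 2 h deviation was -0.082, against -0.089. At that brightness the 1 h array was the highest for 12, against 31.5%, with a median deviation of 0.15 against 0.057, and the 4 h array the lowest for 7, against 20.3%, with -0.049 against 0.019. Summed over the 36 genes, the signal was 2.93%, 2.61%, 2.80% and 2.81% of the whole array's at 1, 2, 4 and 6 h, a sum that the brightest probe sets dominate.

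**Figure D3:**
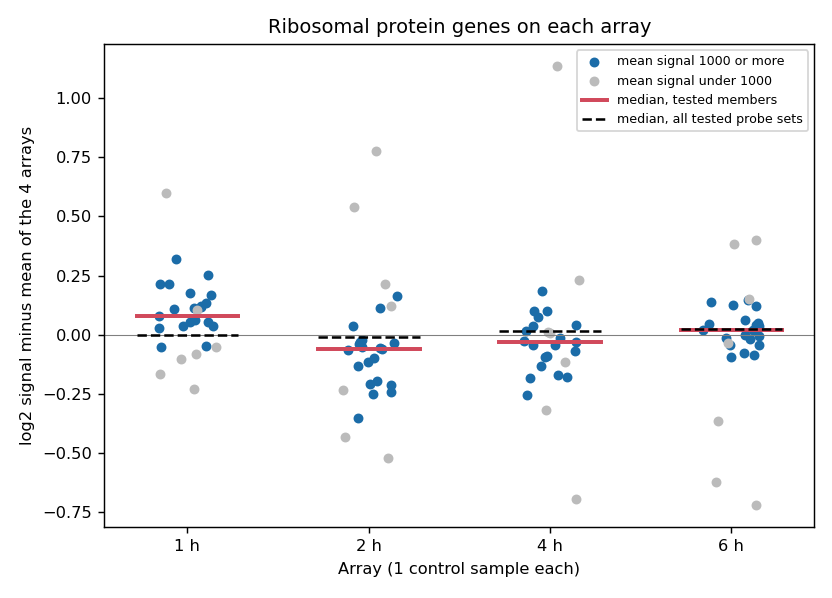
log2 signal minus the mean of the 4 arrays for the 27 tested ribosomal protein genes on each array (points, blue for a mean signal of at least 1000, grey for dimmer genes), with the median of the tested genes (red bar) and of all 7237 tested probe sets (dashed bar). The red bar is above the dashed one at 1 h and below it at 2 and 4 h, and bright genes deviate less than dim ones.

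At 2 h most of these genes had lower signals than at 1 h. The median log2 difference was -0.17 over the 27 tested genes, a ratio of 0.888, and -0.0032 over all tested probe sets. Of the 27, 21 were lower, against 50.3% of all tested probe sets, and 6 were higher. Few passed a fold threshold: 2 were at least 1.5-fold lower, against 12.5%, 2 were at least 1.5-fold higher, against 15.8%, and 1 was at least 2-fold lower, against 3.29%. The lower ones were Rps13 and Rpl7l1 and the higher ones Rpl22 and Rps29, all with mean signals under 1000. The 2-fold one, Rpl7l1, is no structural ribosomal protein, and its 2 and 4 h signals lay under the filter, which it passed through its 1 h signal, so its fold supports nothing. Over all 36 genes the median was -0.18, with 27 lower, 8 higher and 1 at the floor on both arrays, against 40.8% lower over all non-control probe sets.

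Bright probe sets in general were lower at 2 h. Among those with a mean signal of at least 1000 the median was -0.13 over 1852 probe sets, 61.3% of them lower, and -0.18 over the 20 ribosomal protein genes, 18 of them lower. The excess was not seen at every level. Between 1000 and 2000, 1 of 1 gene and 57.7% of 947 probe sets were lower. Between 2000 and 5000 it was 2 of 4 genes and 62.1% of 596 probe sets, with medians of 0.014 and -0.14. Between 5000 and 10000, 8 of 8 genes and 67.4% of 181 probe sets were lower, and from 10000 upward 7 of 7 and 76.6% of 128. With a mean under 1000 the median was 0.23 over 7 tested genes, against 0.045 over 5385 probe sets. These 7 include Rpl7l1 and Rps6kc1, which are no structural ribosomal proteins. The balance of RNA ends, read from control probe sets, was lowest at 2 h for both mRNA controls, most clearly for Gapdh. The 3' signal over the 5' signal of Gapdh was 4.10, 1.08, 3.62 and 3.95 at 1, 2, 4 and 6 h, lowest at 2 h. That of beta-actin was 2.27, 1.72, 2.59 and 2.93, also lowest at 2 h, and that of 18S ribosomal RNA was 4.85, 6.41, 3.34 and 6.11, highest at 2 h. The part of brightness and of these ratios in the 2 h shift was not tested.

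The farthest down among bright genes at 2 h was Rps7, a small-subunit protein, with 13639, 9433, 10256 and 10777 at 1, 2, 4 and 6 h, a log2 difference of -0.53 at 2 h. The 1 h array stands above the other 3. Rps28, a small-subunit protein at the mRNA exit, had 32547, 23483, 34015 and 31029, and its 2 h array alone is low. Rps24, another small-subunit protein, had 32386, 23408, 28716 and 27759, again lowest at 2 h. Rps10, at the mRNA entry side, had 10692, 8242, 10277 and 9995. Rpl7a, of the large subunit, had 5829, 4631, 5495 and 5528. In both, the 2 h array is the low one and the other 3 lie near each other. Which probe sets were read decided the sign for Rps28, whose 2 h difference was -0.47 but 0.083 over the mean of all its probe sets, and for Rps24, with -0.47 but 0.096 on the probe set with the plain name ending.

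Among dim genes the 2 h differences were wider and ran both ways. Rpl22, a large-subunit protein that also binds viral RNA, had 311, 596, 350.4 and 226 at 1, 2, 4 and 6 h, highest at 2 h with a log2 difference of 0.94. Rps29, a zinc-binding small-subunit protein, had 237, 403, 171 and 362, so that 2 and 6 h were high and 1 and 4 h low. Rps27, also a zinc-binding protein, had 883, 1083, 1095.5 and 725. Rps4l, an autosomal relative of the X-linked Rps4x, had 745, 871, 807 and 781.5, within 1.17-fold, and its 2 h difference of 0.23 was -0.18 over the mean of its probe sets. Rps13 had 332, 215, 679 and 188, the widest range of the 36 genes after the floor at 3.62-fold, through a high 4 h array.

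At 4 and 6 h the median difference of the tested genes from 1 h was smaller than at 2 h, with brightness not considered. The median log2 difference of the tested genes was -0.085 at 4 h and -0.079 at 6 h, against 0.016 and 0.021 over all tested probe sets. At 4 h 20 of 27 were lower, against 48.7%, and at 6 h 19 of 27, against 47.5%. Past 1.5-fold at 4 h were 1 lower gene (7.81% of all) and 1 higher (10.3%), and at 6 h 1 lower (7.64%) and 1 higher (10.2%). The lower gene at 4 h was again Rpl7l1, with the same limit, the higher one at 4 h and the lower one at 6 h were both Rps13, and the higher one at 6 h was Rps29. With a mean of at least 1000 the median was -0.13 at 4 h, with 17 of 20 lower, against -0.028 and 53.9% of the 1852 probe sets. At 6 h it was -0.078, with 15 of 20 lower, against -0.028 and 55.7%. At 2 h the medians at that brightness were -0.18 and -0.13. The gap between the bright genes and bright probe sets was thus wider at 4 h than at 2 h. These comparisons share the 1 h array with that at 2 h, so a high 1 h array would enter all 3.

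Individual genes behind the 4 h median differ in which array stands apart. Rps3, a small-subunit protein that also acts in DNA repair, had 10221, 8224, 7364 and 9677 at 1, 2, 4 and 6 h, lowest at 4 h with a log2 difference of -0.47. Rps3a1, also of the small subunit, had 14820.3, 12101, 11064 and 12051, with the 1 h array above the rest. Rps4x had 9899, 8621, 8339 and 8240.1, and Rpl6 had 7860.5, 6692, 6879.7 and 6626. In both, the 1 h array is high and the other 3 lie within 1.05-fold of each other. Rpl19, of the large subunit, went against this, with 16924, 15349, 18847 and 19449, high at 4 and 6 h. Rpl10a, whose protein sits on the large subunit's mobile L1 stalk, had 2623, 2817.5, 2291 and 2352, and Rpl37a had 4824, 4927, 4030.5 and 4523, both highest at 2 h.

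Genes of the large and the small subunit had medians of the same sign. At 2 h the median log2 difference was -0.15 over 11 large-subunit genes, 8 of them lower, and -0.25 over 14 small-subunit genes, 11 of them lower. At 4 h it was -0.085 and -0.082, with 8 and 10 lower, and at 6 h -0.074 and -0.089, with 6 and 12 lower. Of all tested probe sets 50.3%, 48.7% and 47.5% were lower at 2, 4 and 6 h, a share that the 6 of 11 large-subunit genes at 6 h lie near. No test of the difference between the subunits was made, since each hour has 1 array.

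Probe sets that the choice of members left out showed the same direction. On the array, 39 probe sets carry several symbols, at least 1 of them a ribosomal protein gene, and 34 of these passed the filter. Their median log2 difference from 1 h was -0.21 at 2 h, -0.22 at 4 h and -0.12 at 6 h. At 2 h 30 of 34 were lower, at 4 h 28 and at 6 h 27, set against the same 50.3%, 48.7% and 47.5%. The 1 h array was the highest of the 4 for 21 of them, against 23.1%. These shares cover all levels of brightness, and the 34 were not set against probe sets of like brightness. With a mean signal of at least 1000, 61.3%, 53.9% and 55.7% of all 1852 probe sets were lower at 2, 4 and 6 h. The 34 were read on the same 4 arrays and may share transcripts with the 36 genes, so they are no independent repeat.

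Repeat probe sets for the same gene did not always agree, and 10 of the 36 genes had more than 1. Rps28 had 14940, 11589.6, 14071 and 14890 at 1, 2, 4 and 6 h on a second probe set, low at 2 h like the first, but 214, 454, 265.5 and 375 on the dimmest, with log2 differences at 2 h of -0.37 and 1.09. Rpl22 had 191, 189, 145.5 and 199.6 on its second probe set, which did not repeat the high 2 h signal. Rpl10a had 1510.2, 1203, 774.5 and 1046 on its second one, lower at 2 h where the first was higher. The 4 other probe sets of Rps4x had signals between 6.2 and 121, too dim to test.

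The bright probe sets of Rps24 and of Rpl7, a large-subunit protein, carry a doubt over their names. The annotation gives both the same source sequence, so the gene of either may be wrong, and which was not settled. Rpl7 had 7560, 6710.2, 6552 and 7182 at 1, 2, 4 and 6 h on its bright probe set. Its other one had 48.5, 8.8, 110.5 and 6.6, too dim to test. The dimmer probe set of Rps24 had 87.2, 93.2, 147 and 164 and was highest at 6 h, whereas the bright one was highest at 1 h. Ribosomal protein genes also have many processed pseudogenes, and probes shared with these cannot be told apart from the gene. Name endings for shared or incomplete probes are found on 9 of the 36 chosen probe sets, among them those of Rpl41, Rps28 and Rps24.

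No trend over the hours passed the test. Limma fitted a straight line in log2 signal per hour to all 7237 tested probe sets and called 0 of the 27 genes and 0 of all, 0.0% in each direction, after Benjamini-Hochberg adjustment. At an unadjusted p under 0.05 it had 0 of the 27 genes, against 1.17% of all probe sets sloping up and 1.53% down. The median slope was -0.0097 log2 per hour in the tested genes, with 16 of 27 below 0, against 0.0054 and 46.8% of all. Rpl22 was the steepest downward at -0.16 ± 0.11 log2 per hour (SE, 4 arrays; limma adjusted p = 0.999603), followed by Rps27 at -0.062 ± 0.070. Upward, Rps6kc1 had 0.096 ± 0.082 and Rpl19 0.057 ± 0.052. With 2 residual degrees of freedom the fit is weak, and a straight line cannot judge a high 1 h or a low 2 h array.

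At 2 h the medians of other lists of protein synthesis genes lay nearer to 0, apart from that of the mitochondrial ribosome. The proteins of this ribosome, which translates the respiratory subunits coded in mitochondria, had a median log2 difference from 1 h of -0.24 at 2 h, -0.12 at 4 h and -0.012 at 6 h over 56 tested genes, with 41, 36 and 28 lower. Of all tested probe sets 50.3%, 48.7% and 47.5% were lower at these hours, so that the 28 of 56 at 6 h lie at the background. Mrpl17 had 307, 149.6, 282 and 411 at 1, 2, 4 and 6 h, and Mrpl55 had 276, 146.5, 152 and 260. The 2 h array is low in both, and in Mrpl55 the 4 h array too.

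Elongation factors and other genes whose mRNAs carry a TOP tract had a median of -0.030 at 2 h, -0.033 at 4 h and -0.080 at 6 h over 15 tested genes, with 8, 8 and 11 lower, against the same 50.3%, 48.7% and 47.5%. Eef2, the factor that moves the ribosome along the mRNA, had 2048, 5777.5, 2289 and 1839, and Eif4b, a helper of the initiation helicase, had 821.5, 1776, 1245 and 1021. Both were highest at 2 h, where most ribosomal protein genes were low. Initiation factors had -0.032, -0.064 and -0.014 over 26 genes, with 14, 15 and 14 lower, each near those shares. Eif4g3, a scaffold of the cap-binding complex, had 2831, 1413, 2296 and 2451.

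Factors of ribosome assembly had medians of 0.079, -0.085 and -0.0078 over 41 tested genes, with 19, 24 and 21 lower, against 50.3%, 48.7% and 47.5% of all tested probe sets. Rrp1, which acts in large-subunit assembly, had 442, 1831, 532 and 454.5, high at 2 h only. Genes of mTOR and the S6 kinases had -0.091, 0.053 and -0.12 over 14 genes, with 9, 4 and 11 lower, and the kinase gene Akt2 had 514, 1218, 617 and 481. Limma called 0 genes in each of these 5 lists. At an unadjusted p under 0.05 it had 1 of 15 in the elongation and TOP list, 1 of 56 of the mitochondrial ribosome and 0 of the other 3. Of all tested probe sets, 1.17% sloped up and 1.53% down at that level.

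**Figure D4:**
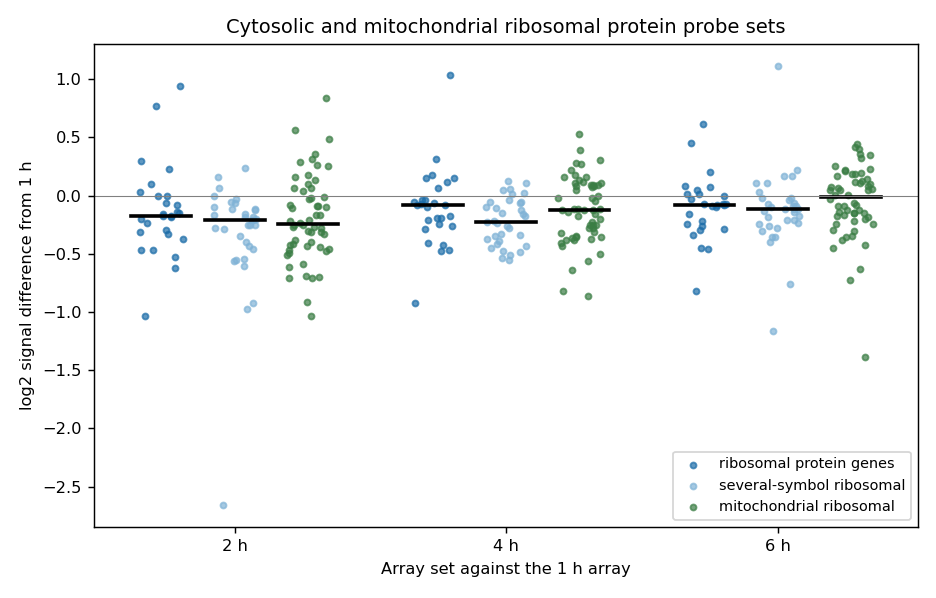
log2 signal difference of the 2, 4 and 6 h arrays from the 1 h array for the 27 tested ribosomal protein genes, the 34 tested probe sets with several symbols that include one, and 56 mitochondrial ribosomal protein genes (points), with medians as black bars. At 2 h the bars are at -0.17, -0.21 and -0.24, and at 6 h that of the mitochondrial genes is at -0.012.

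The tissue label was checked on marker genes. Snap25, of neuronal synapses, had a mean signal of 18884 ± 858 (SD, n = 4), Wfs1, of CA1 pyramidal neurons, 2290.5 ± 292, and Gad1, of interneurons, 4272 ± 180, with the myelin gene Mbp at 8127 ± 852 and the astrocyte gene Gfap at 2196 ± 337. Prox1, of dentate granule cells, was under the floor on 3 arrays, and did not pass the filter. The widest 2 h difference among the markers was that of Camk2a, a kinase of pyramidal neurons, whose dim probe set had 41.0, 351, 195 and 43.3 at 1, 2, 4 and 6 h, a log2 difference of 3.10, and did not pass the filter either. Next were Ttr of the choroid plexus, with 222, 892, 107.5 and 356 at 1, 2, 4 and 6 h, and C1qa of microglia, with 905, 1623, 834.5 and 796. The blood gene Hba-a1 had 3105, 2452, 2378 and 2220.2, highest at 1 h as many ribosomal protein genes were, and Cldn5 of endothelium had 419, 324, 620 and 457. The part of tissue composition in the shifts was not tested.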

How the data were processed

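Total RNA of 4 CA1 control samples, 1 per hour, had been measured on 4 Affymetrix-type mouse arrays of 12488 probe sets, 66 of them controls. The deposited values are 1 linear intensity per probe set and array, made with software not given in the sources used here. With the outer 2% of values trimmed from either end, array means ran from 499.5 to 499.9, so the values were used as deposited. Values under 36.8 were raised to it before log2 was taken, and the 7237 probe sets with a mean of at least 116.4 were tested. Symbols came from the platform annotation (10833 probe sets with 1 symbol, 396 with several, 1193 with none), and the symbols of the 36 genes all matched RefSeq gene identifiers unchanged. The slope per hour was fitted with limma 3.58.1 in R 4.3.3 (mean-dependent variance prior, two-sided, Benjamini-Hochberg adjustment at 0.05) and tested on simulated data. Differences between hours were described by counts and medians beside those of all tested probe sets. Python 3.11.15, pandas 2.3.3 and matplotlib 3.10.9 were used.

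Members, lists and tests were chosen with earlier results of these data known. Genes named were those with the 5 largest differences each way at each hour, the 5 steepest slopes each way, and the 5 widest and 5 narrowest ranges. Also named were all untested genes, the 2 genes that are no structural ribosomal proteins, Rplp0 and Rpsa, and genes whose probe sets disagree. In each other list the gene with the largest 2 h difference was named, and in some lists also the next. Other genes named, and the markers' order, were chosen after their values were seen. Alternatives covered scaling, floor, filter, probe sets, members, time scale, variance prior and leaving out each array. Precision is limited by there being 4 arrays.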

Additional observations from a re-analysis of the deposited data

How the results depend on the processing

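The direction of the median of the ribosomal protein genes was below 0 against 1 h at each hour under every alternative run, but its size depended on the scaling. At 2 h the median of -0.17 was -0.081 after quantile normalization, with 17 of 27 genes and 54.2% of all probe sets lower, and -0.30 after median centring, with 23 and 60% lower. Median centring moved the median of all tested probe sets to -0.13, -0.093 and -0.12 at 2, 4 and 6 h, and the gap between these genes and all probe sets stayed at -0.17 at 2 h, against -0.029 after quantile normalization. At 4 and 6 h centring gave -0.19 and -0.22 in place of -0.085 and -0.079, and quantile normalization -0.097 and -0.028, the latter with 17 genes lower, 8 higher and 49.9% of all probe sets lower. The deviation of 2 h from the mean of the other 3 arrays, -0.079, was -0.01 after quantile normalization and between -0.14 and -0.035 when 1 of the other arrays was left out, the first without the 4 h and the second without the 1 h array. After quantile normalization the gap between these genes and all probe sets was -0.091 at 4 h and -0.028 at 6 h, so it was widest at 4 h. The 34 probe sets with several symbols gave -0.22 at 4 h. These, and the genes with a mean signal of at least 1000, were added after seeing the data. A move was counted where it exceeded 0.061, the SD over the 4 arrays of the genes' median. Limma called 0 of the ribosomal protein genes under each alternative, and over all probe sets 0 to 32 when 1 array was left out, the 32 without the 2 h array, at 1 residual degree of freedom. Of 11 alternatives for the 2 h differences of single genes, 4 could change them and gave 65 altered values, of which 24 moved by at least the SD over the gene's arrays and 11 had another sign, in 10 of 27 genes. These were Rpl10a, Rpl19 (0.23 in place of -0.14), Rps28 and Rps4l with the mean of all probe sets, Rpl10a and Rpl37a with centring, Rps24 with the plain ending, and Rpl41, Rpl8, Rps18 and Rpsa with quantile normalization. The cause of these dependences was not tested. No paired analysis was possible because each hour has 1 sample.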
